A study of Mus musculus with 12 samples.

Results

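A set of 10 Notch receptor and target genes was examined for open chromatin in early T cell precursors: the receptors Notch1, Notch2 and Notch3, the nuclear repressors Hes1, Hes5, Hey1 and Heyl, the feedback regulators Nrarp and Dtx1, and Ptcra. They are 10 of the 21755 protein-coding genes on the autosomes and the X chromosome in GENCODE release M21. They were chosen by name, as receptors of the pathway and as genes known to be switched on directly by it. No measured value entered the rule, though earlier results of these data were known. Every DNase I hypersensitive site (DHS) within 50 kb of either end of a gene body was taken, which gave 273 sites. Of these, 17 lay at the gene's own start, 36 at the start of another coding gene and 220 were distal, meaning that no coding gene record started within 1 kb of the midpoint. The whole series held 142190 distal sites.

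Notch receptors are cut when they meet a ligand such as Delta1 on a neighbouring surface, and the freed intracellular part enters the nucleus. There it joins the DNA-binding protein RBPJ and a Mastermind coactivator and switches on target genes. The pathway is required for progenitors to enter the T lineage in the thymus, where Hes1, Dtx1, Nrarp and Ptcra are among its known targets.

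DNase-seq maps open chromatin by digesting nuclei with DNase I and sequencing the ends, and the study asked how the open regions change as progenitors respond to Notch ligand. The 12 libraries came from C57BL/6J mice. The LSK group (n = 3) was freshly isolated marrow progenitors, negative for lineage markers and positive for SCA1 and KIT, and it is the source of all other groups. DN1 cells (n = 2, KIT++ CD44+ CD25-), DN2a cells (n = 2, KIT++ CD44+ CD25+) and DN2b cells (n = 2, KIT+ CD44lo CD25+) were sorted after culture of LSK cells on immobilized Delta1, and the IgG group (n = 3) was LSK cells cultured on human IgG1 with no ligand. These cultures held 4 growth factors. According to the methods DN1 cells were grown without IL-7 and DN2a and DN2b cells with it, so a difference between DN2b and DN1 cannot be told apart from one of IL-7. They name IL-7 and the DN sort for the Delta1 cultures and not for IgG. Of the 6 Delta1 libraries 4 (DN2a and DN2b) thus had IL-7 and all were sorted, and a difference between Delta1 culture and IgG cannot be told apart from these either. The ligand was an immobilized protein and not a stromal cell. The DN libraries may share LSK isolates, which the labels do not map, and the p-values treat all libraries as independent.

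Each library is a list of 150 bp peaks with a whole-number score of no stated meaning. The value used here is the percentile of the highest peak's score among all peaks of its own library, with 0 where there was no peak. Read depth is unknown. The lists held 32951 to 37511 peaks in IgG, 53867 to 62372 in LSK and 57723 to 111574 in the 6 libraries from Delta1 culture, with DN2b replicate 2 the longest. A short list leaves weak sites at 0, so many results are also given with every list cut to its 32951 highest peaks (equal list lengths). Some sites could not be tested there, among those named below Notch3 +1.9 kb, Notch2 +16.4 kb, Hey1 -48.9 kb, Heyl +2.9, +26.7 and -13.6 kb and Ptcra -4.4 kb. Promoters and sites needed a peak in at least 2 libraries to be tested. One that met this only through the group or culture where it was high had to differ, so its difference is given as a description, with no p-value, though it is among the tested and called counts here as over the whole series. Markers were checked by promoter. Of 8 T lineage markers, 1 or 2 had an open promoter in LSK libraries, 3 in DN1, 6 in DN2a, 7 or 8 in DN2b and 0 in every IgG library. Of 8 myeloid markers, 4 to 7 were open in IgG libraries and 2 to 4 in the others. Of 6 mast and erythroid markers, 0 were open in every IgG library and 2 or 3 in the others. Of 6 stem and progenitor markers, 2 or 3 were open in IgG, 4 or 5 in LSK and 3 or 4 in Delta1 culture, and of 6 B lineage markers 1 or 2 in IgG and 2 in the others. Bulk peaks cannot tell fewer cells of a type from less opening per cell, and the part of a changed cell mixture in the IgG values below was not tested.

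At the promoters, 5 of the 10 genes were higher in Delta1 culture than in the IgG culture and none was lower. These were Hes1, Hey1, Nrarp, Dtx1 and Notch2. Dtx1 had promoter peaks only in Delta1 culture and so could only be higher there, and its difference is a description. Over all tested promoters 56.3% were called higher and 2.86% lower in this comparison (limma, adjusted p under 0.05 over 12732 promoters), so the count of 5 of 7 tested members stands beside a large shift of the whole set. Against LSK, IgG was lower at 3 member promoters (Hes1, Hey1 and Notch2) and higher at 0, where 41.3% of all promoters were called lower and 2.19% higher. Between DN1 and LSK no member promoter was called in either direction, against 2.36% called higher and 1.34% lower over all promoters. DN2b minus DN1 also gave 0 and 0, against 1.52% and 0.84%. In the same limma fit the lowest member values were those of Hey1 in DN1 over LSK (unadjusted p = 0.00789) and Dtx1 in DN2b over DN1 (unadjusted p = 0.00373). The unadjusted share over all promoters is not given here, so these values only describe. At equal list lengths only 4 member promoters could be tested, and 22.1% of all promoters were then called higher and 13% lower in Delta1 culture than in IgG. In that comparison Hes1 and Hey1 kept their call. Nrarp lost it, and so did Notch2, whose difference was then -9.35 points (adjusted p = 0.195). Dtx1 was not among the 4 that could be tested. Of the 3 promoters lower in IgG than in LSK, Hes1 kept its call at equal list lengths. Hey1 (-15.8 points, adjusted p = 0.207) and Notch2 (-12.3 points, adjusted p = 0.164) lost theirs.

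**Figure D1:**
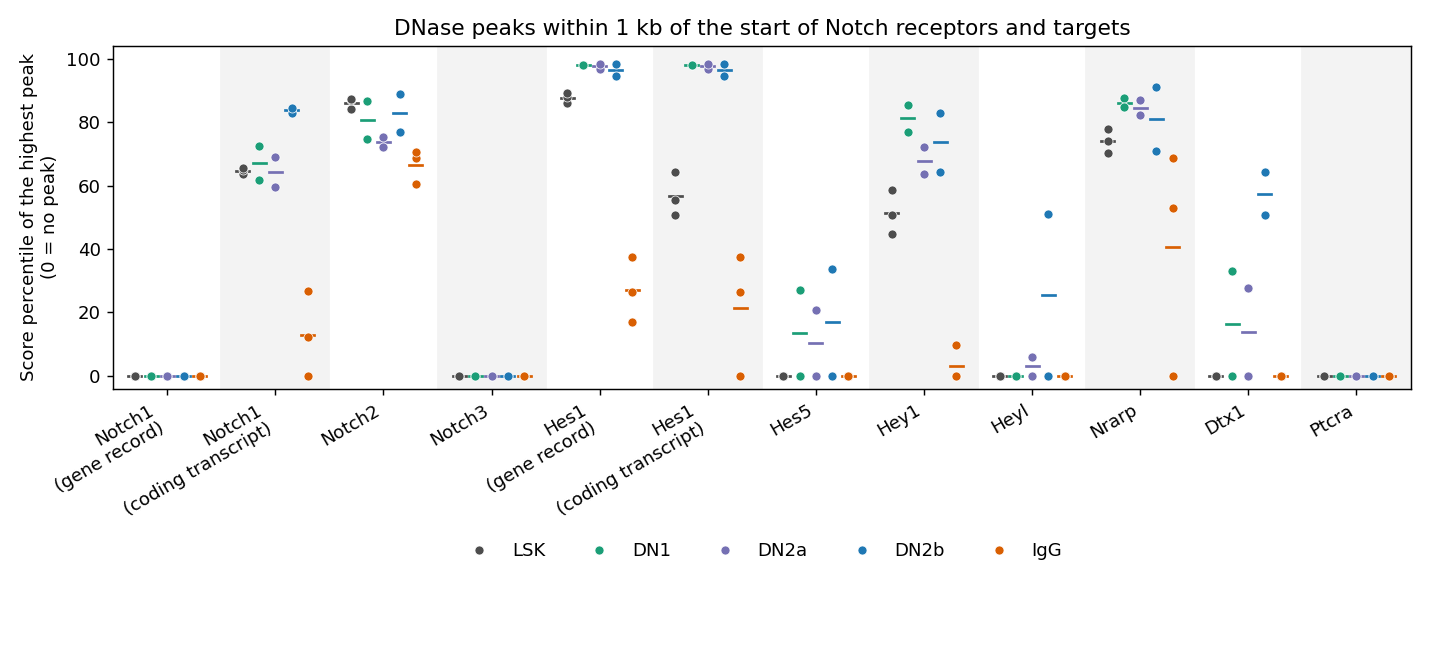
Score percentile of the highest peak within 1 kb of each gene's start in the 12 libraries, with 0 for no peak. Each point is a library and each bar a group mean. Notch1 and Hes1 are shown at the start of the gene record and at the start of the coding transcript, and at the latter all 6 Hes1 points from Delta1 culture lie at 94.5 or above while LSK lies between 50.8 and 64.3.

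Notch1 (chr2:26457903-26516663, minus strand, GRCm38, the assembly behind mm10) encodes the receptor required for T cell commitment. Its gene record starts at chr2:26516663, and no library had a peak within 1 kb of that position. A second coding transcript starts downstream at chr2:26503822, which is also the start in the RefSeq annotation. Within 1 kb of it the percentiles were 63.5, 65.0 and 65.6 in LSK, 72.5 and 61.8 in DN1, 59.5 and 68.9 in DN2a, and 82.9 and 84.6 in DN2b. The IgG libraries stood at 12.2, 0 and 26.8. Each IgG value lay below all others, and the DN2b values above all others. The mean was 58.7 ± 5.79 points (SE) higher in Delta1 culture than in IgG (site test of limma, adjusted p = 4.73e-05) and fell by 51.7 points (SE 6.69) from LSK to IgG (adjusted p = 0.000468). At equal list lengths the same site was 30.2 points higher in Delta1 culture (adjusted p = 0.0098) and 38.5 points higher in DN2b than in DN1 (adjusted p = 0.0354), a step that was 16.7 points and not called on the lists as deposited (adjusted p = 0.285).

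Notch1 had 30 distal sites, of which 7 of the 21 tested were called higher and 4 lower in Delta1 culture than in IgG, beside 37.2% and 8.9% of all distal sites. These were 4 and 5 of 14 at equal list lengths, beside 26.2% and 24.4%. The site at the start of the coding transcript (+12.8 kb from the gene record) counts among the 30 and the 7, since distal was set by gene records. Another of the 7 opened in an intron 1441 bp downstream of the start of the coding transcript (site +14.3 kb from the gene record), and it was chosen after its values were seen. No LSK or IgG library had a peak there. The percentiles were 52.2 and 40.7 in DN1, 47.4 and 70.0 in DN2a, and 79.0 and 90.7 in DN2b. As a description, DN1 was 46.4 ± 8.06 points above LSK and DN2b a further 38.4 ± 8.83 points above DN1. When lists were cut to equal length the DN1 peaks dropped out, so that DN1 and LSK both stood at 0, and DN2b stood 64.6 points above DN1. The site is shown because it carries the RBPJ letters. RBPJ is known to bind TGGGAA, with GTGGGAA a stronger form that contains it, and both were searched on both strands. Capitals mark the match in the plus strand of chr2:26502277-26502486:
Notch1 +14.3 kb: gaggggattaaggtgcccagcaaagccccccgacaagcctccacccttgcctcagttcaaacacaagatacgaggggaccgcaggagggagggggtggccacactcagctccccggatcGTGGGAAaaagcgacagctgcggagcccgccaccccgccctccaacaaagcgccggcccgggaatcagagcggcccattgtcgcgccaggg

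Other Notch1 sites followed different courses. The site with the highest median of all (+3.1 kb, intron) stood at 91.4, 92.9 and 92.8 in LSK and between 97.0 and 99.1 in the 6 libraries from Delta1 culture. In IgG it was 34.9, 32.4 and 88.8, so 1 IgG library stood close to LSK and the other two far below, and Delta1 culture was 46.2 ± 10.7 points higher (adjusted p = 0.00696). The site at +44.1 kb, in an intron, was lost between stages. It stood at 82.4, 70.0 and 81.6 in LSK, 84.1 and 84.8 in DN1, 53.1 and 0 in DN2a, 0 in both DN2b libraries, and 29.5, 66.9 and 58.2 in IgG. The fall from DN1 to DN2b was 84.4 ± 16.5 points (adjusted p = 0.00657), and 60.6 points at equal list lengths. At 3 of the 30 Notch1 sites, beside 2.19% of all distal sites, there was a peak in every IgG library and in no other. The one with the largest difference, between genes at -33.4 kb and nearest to the start of Egfl7, had percentiles of 86.1, 75.2 and 54.6 in IgG, a mean of 72.0 points above the 0 of Delta1 culture.

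Notch2 (chr3:98013527-98150361, plus strand), a receptor used widely among blood cells, was the only receptor with an open promoter at its gene record. The percentiles were 84.2, 86.8 and 87.3 in LSK, 86.7 and 74.6 in DN1, 75.4 and 72.1 in DN2a, 76.8 and 88.9 in DN2b, and 68.7, 60.6 and 70.5 in IgG. IgG lay below every other library, but the gap to DN2a was narrow. Delta1 culture was 12.5 ± 4.57 points above IgG on the lists as deposited (adjusted p = 0.0357) and differed from it by -9.35 points at equal list lengths (adjusted p = 0.195), so no direction is given for this promoter. A second site at the start, with its midpoint 564 bp inside the gene, had peaks of 45.4 and 56.9 in DN1 and 50.8 and 54.7 in DN2b and none elsewhere, and it was chosen after its values were seen. As a description, DN1 was 51.2 ± 5.73 points above LSK there on the lists as deposited and 4.59 points above without a call at equal list lengths.

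Around Notch2, 12 of the 33 tested distal sites were called higher and 10 lower in Delta1 culture than in IgG, where the series gave 37.2% and 8.9%. With lists of equal length they were 5 and 10 of 25, where it gave 26.2% and 24.4%. Of its sites, 7 had a peak in every IgG library and in no other, out of the 12 such sites found around all 10 genes. Over the whole series 2.19% of distal sites had this pattern, and 12 of 220 did so here. The 7 lay from -21.9 kb to +55.9 kb, 3 of them upstream and 4 in introns. At +18.9 kb, in an intron, the IgG values were 81.7, 80.0 and 78, and the other 9 libraries had no peak. From IgG to Delta1 culture the value fell by 79.9 points, and by 78 points at equal list lengths.

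Other Notch2 sites moved among the cells on the T lineage path. The site at -8.0 kb, upstream of the gene, had the highest median around Notch2. It stood at 67.7, 72.2 and 73.6 in LSK, 89.4 and 89.1 in DN1, 71.6 and 75.0 in DN2a, 60.5 and 69.3 in DN2b, and 0 in IgG. DN1 was the highest group, 18.1 ± 4.32 points above LSK (adjusted p = 0.0191, and 22.7 ± 8.15 points at equal list lengths with adjusted p = 0.106) and 24.4 ± 4.73 points above DN2b (adjusted p = 0.00637). From DN1 to DN2b the value fell by 59.99 points at equal list lengths (adjusted p = 0.00122). The site at +166.7 kb, beyond the 3' end of the gene and nearest to the start of Adam30, was a DN2 site. It had percentiles of 54.9 and 73.1 in DN2a and 80.3 and 87.4 in DN2b, 1 weak peak of 11.9 in DN1 and none in LSK or IgG, and DN2b exceeded DN1 by 77.9 ± 8.16 points (adjusted p = 0.000185, and 60.4 points at equal list lengths). An intron site at +16.4 kb opened in DN2b alone, at 65.6 and 67.7, and was chosen after its values were seen.

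Notch3 (chr17:32120820-32166852, minus strand), a receptor known as a Notch target in developing T cells, had no peak within 1 kb of its start in any library. The site with the largest difference between Delta1 culture and IgG lay in an intron at +2.3 kb. There the percentiles were 0, 55.4 and 16.0 in LSK, 85.0 and 71.7 in DN1, 93.8 and 77.7 in DN2a, 86.4 and 94.9 in DN2b, and 0 in all IgG libraries. The 6 libraries from Delta1 culture lay above all others, by 84.9 ± 10.7 points over IgG (adjusted p = 0.000224) and, for DN1, by 54.5 ± 13.8 points over LSK (adjusted p = 0.0255). The difference from IgG was 67.0 points at equal list lengths, given there as a description. The plus strand of this site, chr17:32164417-32164606, held TGGGAA (in capitals) and no GTGGGAA:
Notch3 +2.3 kb: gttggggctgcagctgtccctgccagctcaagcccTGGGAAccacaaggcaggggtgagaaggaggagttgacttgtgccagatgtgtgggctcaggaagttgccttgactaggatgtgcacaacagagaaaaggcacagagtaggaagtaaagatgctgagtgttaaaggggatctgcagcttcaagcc

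A neighbouring Notch3 site at +1.9 kb, chosen after its values were seen, was at 55.9 and 69.3 in DN2b, 22.7 in 1 DN1 library and 0 elsewhere, and DN2b exceeded DN1 by 51.3 points. Of the 20 distal sites tested around Notch3, 10 were called higher and 0 lower in Delta1 culture than in IgG (37.2% and 8.9% over the series), and 4 were higher in DN1 than in LSK (15.4%). Of the 11 tested at equal list lengths, 2 were higher and 2 lower in Delta1 culture than in IgG (26.2% and 24.4% over the series). The lower ones were at -3.2 kb (by -35.6 points, adjusted p = 0.0148) and +53.1 kb (by -17.8 points, a description). The largest called change from LSK to DN1 was at +65.3 kb, in an intron of the pseudogene Pdxk-ps, where the DN1 libraries stood at 67.7 and 65.9 and all others at 0. That difference was 66.8 points, and 16.9 points at equal list lengths. The highest site by median, at +75.4 kb in the same pseudogene, was open in all 12 libraries.

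**Figure D2:**
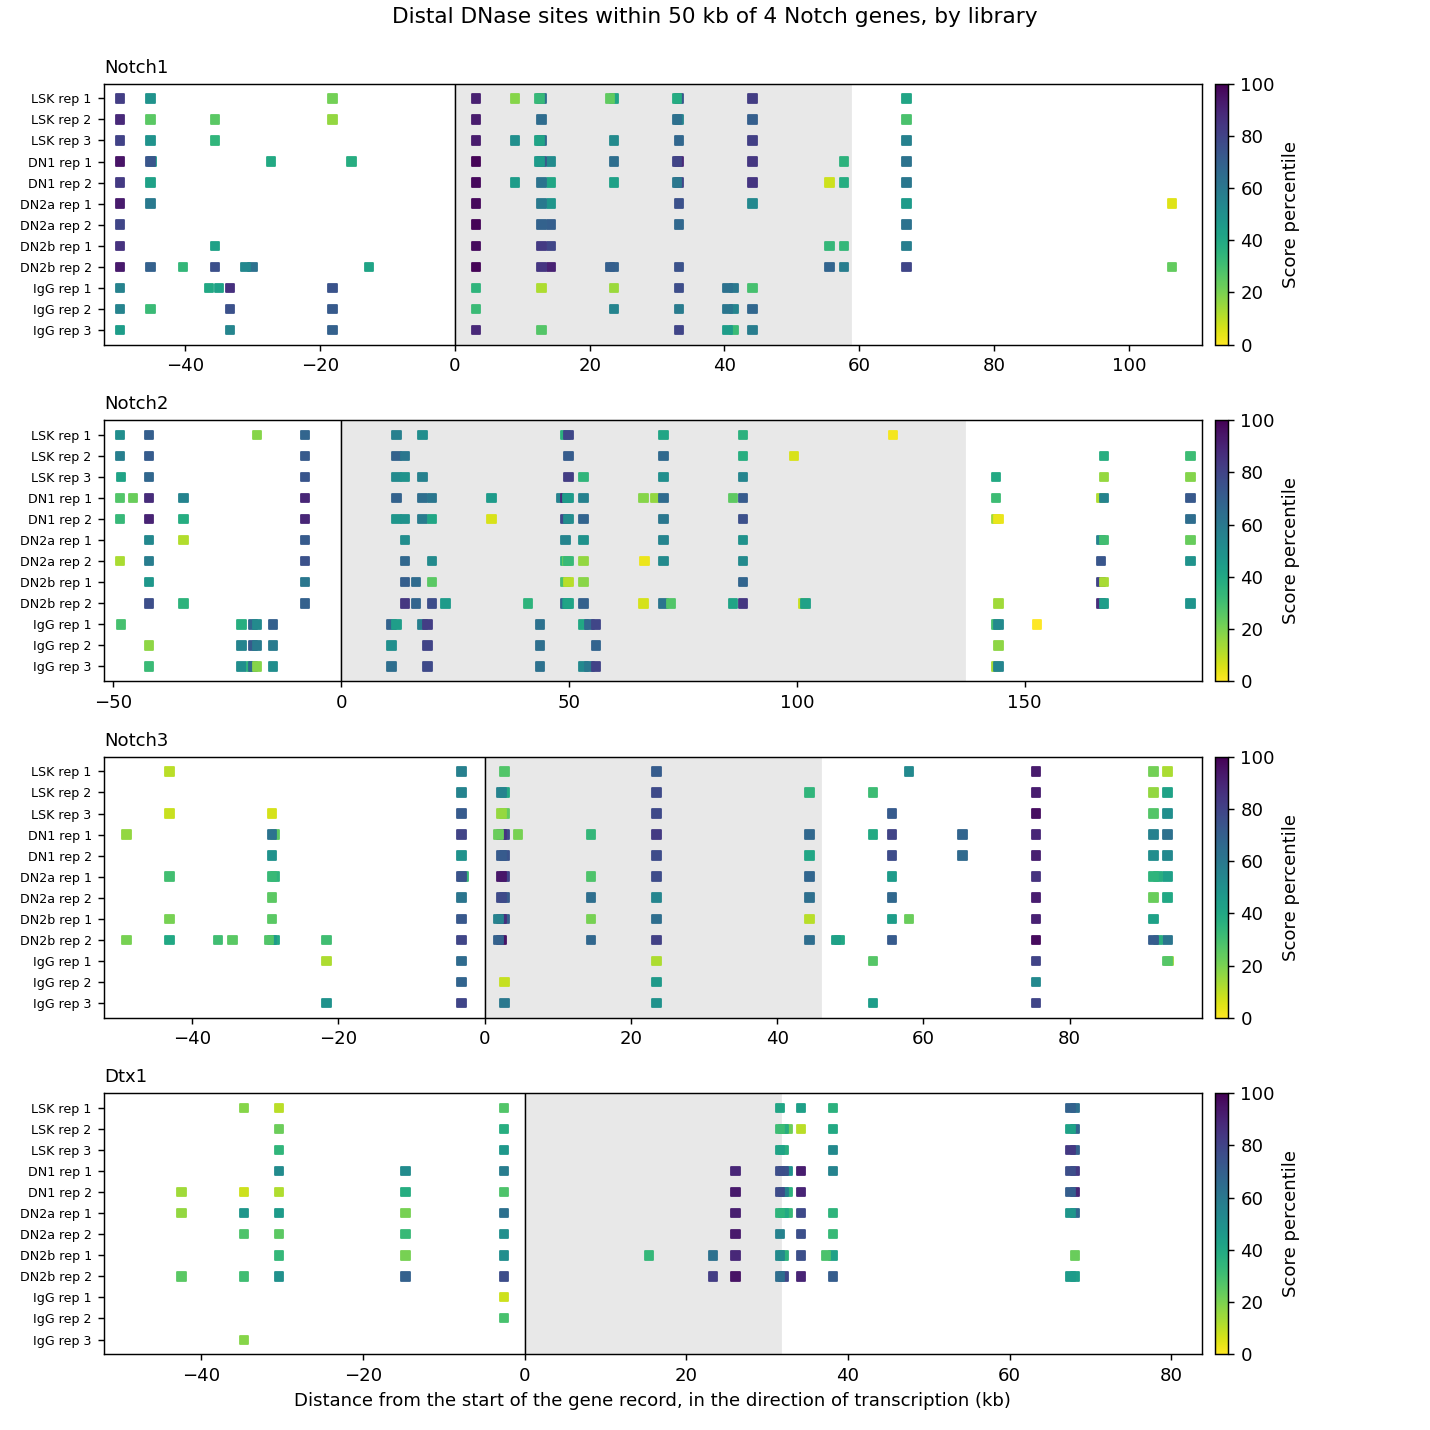
Distal sites around Notch1, Notch2, Notch3 and Dtx1 in the 12 libraries. The x axis gives the distance from the start of the gene record in kb along the direction of transcription, the grey band is the gene body, and the colour of each square is the score percentile. Columns filled only in the 3 lowest rows are sites seen in IgG alone, which are frequent around Notch2 and absent around Dtx1, and the columns at +26.1 kb of Dtx1 and +14.3 kb of Notch1 are filled only in the 6 rows from Delta1 culture.

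Hes1 (chr16:30064384-30067796, plus strand) encodes a repressor of the basic helix-loop-helix type and is the best known direct Notch target. At the start of its gene record the highest percentile was 85.9, 87.9 and 89.3 in LSK, 98.1 and 98.0 in DN1, 96.8 and 98.3 in DN2a, 94.5 and 98.4 in DN2b, and 26.6, 17 and 37.6 in IgG. That window holds 3 separate sites, and they behaved differently. The site centred at -113 bp stood between 85.9 and 89.3 in LSK and between 79.3 and 94.3 in Delta1 culture, with a DN1 minus LSK difference of 0.356 ± 7.31 points (adjusted p = 1). The site at the start of the coding transcript (chr16:30065340) rose from 50.8, 55.4 and 64.3 in LSK to 98.1 and 98.0 in DN1, and was 96.8, 98.3, 94.5 and 98.4 in the DN2 libraries and 26.6, 0 and 37.6 in IgG. This site was chosen after its values were seen. DN1 exceeded LSK there by 41.2 ± 9.21 points in the site test (adjusted p = 0.0138), and DN2b and DN1 differed by 1.61 points (SE 10.1, adjusted p = 1). Tested among promoters, with every coding transcript start taken, the DN1 gain over LSK had SE 10.2 and adjusted p = 0.0493, just under the threshold. At equal list lengths the site's gain was 69.1 points (site test, adjusted p = 0.000252). Thus a rise from LSK to DN1 was seen at the coding transcript's start, and not when the highest peak of the whole window was taken (10.4 ± 6.04 points, adjusted p = 0.517). Against IgG the window was 70.3 ± 4.68 points higher in Delta1 culture (adjusted p = 3.66e-06) and 73.4 points higher at equal list lengths.

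The bases of the Hes1 start site up to the coding transcript's start are shown because they hold a facing pair of RBPJ letters. The search pattern was GTGNGAA followed after 15 to 17 bases by TTCNCAC, on both strands. In the plus strand of chr16:30065117-30065339, capitals mark GTGGGAA, which begins 81 bases before the transcript's start, a TGGGAA within the 16-base gap, and TTCACAC, which completes the pair:
Hes1 start site: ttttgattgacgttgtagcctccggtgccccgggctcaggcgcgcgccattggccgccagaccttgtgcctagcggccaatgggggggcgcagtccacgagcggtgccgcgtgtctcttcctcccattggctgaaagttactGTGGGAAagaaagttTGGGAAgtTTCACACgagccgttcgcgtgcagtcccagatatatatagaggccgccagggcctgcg
The pattern was present in 2 of 32619 RefSeq promoter windows of 300 bases and in 14 of 142181 windows of the same length around distal sites. None of these were among the 7 matched member promoters or the 220 distal member sites. Hes1 had no matched promoter window, so the pair above is not in these counts. It was found in a stretch of 223 bases of a chosen site.

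Of 26 distal sites around Hes1, 10 could be tested, since 16 had a peak in a single library. Of the 10, 3 were called higher and 0 lower in Delta1 culture than in IgG, beside 37.2% and 8.9% of all distal sites. With lists of equal length 2 of 5 were higher and 1 lower, beside 26.2% and 24.4%. The lower one was at -39.5 kb, with a difference of -43.6 points (adjusted p = 0.0161). The site at +2.6 kb, in a coding exon of Hes1, was open in every LSK and Delta1 library, between 58.9 and 93.0, and in no IgG library. Delta1 culture was 78.5 ± 5.21 points above IgG there (adjusted p = 3.95e-06), and 53.5 points above at equal list lengths. One site, between genes at +38.4 kb, was open only in LSK, at 67.7, 47.0 and 65.6, and it fell by 60.1 points to 0 in DN1 (31.5 points at equal list lengths).

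Hes5 (chr4:154960923-154962371, plus strand), a related repressor, opened little. A peak near its start was present in 1 library of each Delta1 group, at 27.2 in DN1, 20.7 in DN2a and 33.8 in DN2b, and in no LSK or IgG library, and no comparison was called. A site at +1.2 kb, in an untranslated exon part of Hes5, went the other way. It stood at 75.5, 63.6 and 62.8 in LSK, 0 in DN1 and DN2a, 0 and 42.8 in DN2b and 26.6, 0 and 0 in IgG, and fell by 67.3 points (SE 13) from LSK to DN1 (adjusted p = 0.00646). It fell by 43.1 points at equal list lengths, given there as a description. Far upstream at -49.6 kb, nearest to the start of Fam213b, a strong site was at 92.2, 95.7 and 93.8 in IgG, at 16.1 in 1 DN1 library and at 0 elsewhere, and the value fell by 91.2 points from IgG to Delta1 culture. Only 1 of the 16 distal sites in the Hes5 window was nearest to the start of Hes5, so the neighbouring genes share this window. The site of highest median, at -16.5 kb and nearest to the start of Tnfrsf14, lay between 61.4 and 90.9 in all 12 libraries. Hes5 was the only member with GTGGGAA among the 7 whose 300-base promoter was in the RefSeq table (Nrarp, Notch1, Notch2, Hes5, Dtx1, Notch3 and Ptcra, GRCm38.p6; Hes1, Hey1 and Heyl were not matched). It holds the letters once on each strand of chr4:154960673-154960972, in capitals:
Hes5 promoter: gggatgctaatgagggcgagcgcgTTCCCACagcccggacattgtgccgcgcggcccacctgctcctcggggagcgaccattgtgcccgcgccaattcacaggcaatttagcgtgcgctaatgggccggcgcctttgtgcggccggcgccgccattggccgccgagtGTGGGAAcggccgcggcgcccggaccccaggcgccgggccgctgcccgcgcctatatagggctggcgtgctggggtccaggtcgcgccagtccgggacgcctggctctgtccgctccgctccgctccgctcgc
Over all 32619 promoter windows, GTGGGAA was present in 6.38% and TGGGAA in 25.4%.

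Hey1 (chr3:8663359-8667256, minus strand), a repressor of the Hairy family, had a promoter at intermediate percentiles. They were 58.6, 44.6 and 50.7 in LSK, 85.4 and 77.0 in DN1, 63.6 and 72.1 in DN2a, 64.4 and 82.9 in DN2b, and 9.68, 0 and 0 in IgG. All libraries from Delta1 culture lay above all LSK libraries, and all IgG libraries lay below both. Delta1 culture was 71.0 ± 7.11 points above IgG (adjusted p = 2.87e-05), and 43.3 points above at equal list lengths (adjusted p = 0.00112). The DN1 gain over LSK was 29.9 ± 9.18 points, not called among promoters (adjusted p = 0.125), called for the site 105 bp inside the gene among all sites (adjusted p = 0.021), and 38.7 points and called at equal list lengths (adjusted p = 0.0337). A second Hey1 site, centred at -215 bp, showed no such gain, with a DN1 minus LSK difference of -11.4 ± 16.7 points (site test of limma, adjusted p = 0.836). Its percentiles were 62.0 and 0 in DN1 and between 37.2 and 48.7 in LSK. A further site, at -625 bp, had peaks in DN1 alone, at 45.4 and 33.0. From LSK to IgG the promoter fell by 48.1 points (SE 8.21) (adjusted p = 0.00124) and fell by 15.8 points without a call at equal list lengths (adjusted p = 0.207). Only 3 of the 11 distal sites around Hey1 could be tested. The site at +2.6 kb, in a coding exon, was open in all 12 libraries, and its 27.3-point excess in Delta1 culture over IgG, a call lost without IgG replicate 3, became a difference of -12.6 points at equal list lengths (adjusted p = 0.194). Far upstream at -48.9 kb, both DN1 libraries had a peak, at 41.7 and 45.2, as did both DN2b libraries, at 23.0 and 19.0, and no other. DN1 was 43.4 ± 3.78 points above LSK there, which is a description.

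Heyl (chr4:123233556-123249875, plus strand), a relative of Hey1, had a promoter peak in 2 libraries, at 6.11 in DN2a replicate 1 and 50.9 in DN2b replicate 2. An intron site at +2.9 kb was open in both DN2b libraries, at 17.8 and 69.3, and in no other, and exceeded DN1 by 43.5 points. It was chosen after its values were seen. At +26.7 kb, nearest to the start of Pabpc4, DN2b stood at 60.5 and 59.2 and exceeded DN1 by 52.7 ± 15.2 points (adjusted p = 0.0452), a call that was lost without any 1 of 9 of the 12 libraries. At -13.6 kb, between genes, all IgG libraries were at 0 and Delta1 culture was 35.8 ± 10.3 points higher (adjusted p = 0.02), a call lost without any 1 of the 3 IgG libraries. The site of highest median, at +49.1 kb in an intron of Pabpc4, lay between 62.3 and 90.5 in all 12 libraries.

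Nrarp (chr2:25180758-25183339, plus strand) encodes a small ankyrin repeat protein that restrains the Notch complex. Its promoter stood at 70.1, 74.2 and 77.9 in LSK, 87.6 and 84.8 in DN1, 87.1 and 82.1 in DN2a, 70.9 and 91.0 in DN2b, and 68.7, 0 and 52.8 in IgG. IgG libraries were all below the rest, but they spread over 68.7 points among themselves. Delta1 culture was 43.4 ± 12.4 points above IgG (adjusted p = 0.0115), and 27.9 points above without a call at equal list lengths (adjusted p = 0.0833). A clearer split was upstream at -17.2 kb, between genes. That site was at 63.5, 67.6 and 77.9 in LSK, 89.1 and 85.3 in DN1, 60.9 and 65.3 in DN2a, 60.5 and 80.6 in DN2b and 0 in every IgG library. Delta1 culture exceeded IgG by 73.6 ± 5.14 points there (adjusted p = 5.25e-06), and by 42.6 points at equal list lengths. The site of highest median, at +47.9 kb and nearest to the start of Tubb4b, was at 50.7, 73.1 and 64.2 in IgG and between 84.1 and 93.6 elsewhere. Of the 13 tested distal Nrarp sites, 3 were called higher and 0 lower in Delta1 culture than in IgG, beside 37.2% and 8.9% over the series. With lists of equal length 2 of 6 were higher and 1 lower, beside 26.2% and 24.4%. The lower one, at +13.8 kb, differed by -38.0 points, given as a description. On the lists as deposited none of the 13 tested distal Nrarp sites was called between DN1 and LSK, beside 15.4% higher and 2.45% lower over the series. None was called between DN2b and DN1 either, beside 8.42% and 9.79%. At equal list lengths the site at -17.2 kb fell by 38.3 points (SE 8.21) from DN1 to DN2b (adjusted p = 0.00974).

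Dtx1 (chr5:120680202-120711927, minus strand), which encodes an E3 ubiquitin ligase that binds the receptor's intracellular part, had the largest gain from LSK to DN1 of the named sites. Its promoter stayed at 0 in LSK and IgG. It was at 0 and 33.0 in DN1, 0 and 27.8 in DN2a, and 50.8 and 64.1 in DN2b. Delta1 culture was 29.3 points above IgG, and the 40.9-point step from DN1 to DN2b was not called among promoters (adjusted p = 0.111) and was called among all sites (adjusted p = 0.044). The intron site at +26.1 kb had percentiles of 89.4 and 93.2 in DN1, 91.6 and 93.1 in DN2a, and 88.9 and 95.2 in DN2b, with no peak in any LSK or IgG library. As a description, the gain was 91.3 ± 4.70 points from LSK to DN1 and 91.9 points from IgG to Delta1 culture. At equal list lengths these were 77.4 and 81.4 points. The values of the DN1, DN2a and DN2b groups overlapped, and DN2b minus DN1 was 0.744 ± 5.14 points.

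The Dtx1 site of highest median, at +34.2 kb, lay past the 3' end of Dtx1 in an intron of Rasal1. It was at 43.7, 10.5 and 0 in LSK, 92.0 and 90.0 in DN1, 77.8 and 75.9 in DN2a, 76 and 90.0 in DN2b and 0 in IgG, 72.9 ± 11.2 points higher in DN1 than in LSK (adjusted p = 0.00176, and 75.1 points at equal list lengths). The intron site at +23.3 kb, chosen after its values were seen, was open in DN2b alone, at 63.1 and 82.4, 72.8 points above DN1, and 35.8 points above at equal list lengths. These 3 sites are shown because each holds GTGGGAA, and +34.2 kb holds it at 2 places. They are plus strand sequences of chr5:120685777-120685966, chr5:120677677-120677846 and chr5:120688577-120688746, and capitals mark GTGGGAA and TGGGAA on either strand:
Dtx1 +26.1 kb: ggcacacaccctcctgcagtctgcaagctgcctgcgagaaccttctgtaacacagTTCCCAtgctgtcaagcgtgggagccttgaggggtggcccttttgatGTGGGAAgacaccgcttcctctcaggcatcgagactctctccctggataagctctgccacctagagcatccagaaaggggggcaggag
Dtx1 +34.2 kb: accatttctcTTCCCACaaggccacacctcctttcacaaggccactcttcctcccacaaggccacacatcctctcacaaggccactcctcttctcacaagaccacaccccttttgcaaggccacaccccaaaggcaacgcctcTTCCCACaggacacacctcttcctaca
Dtx1 +23.3 kb: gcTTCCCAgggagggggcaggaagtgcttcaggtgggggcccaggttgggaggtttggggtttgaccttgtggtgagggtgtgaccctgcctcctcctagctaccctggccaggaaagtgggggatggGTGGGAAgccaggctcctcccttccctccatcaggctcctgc

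Of the 14 distal sites tested around Dtx1, 11 were called higher and 0 lower in Delta1 culture than in IgG (37.2% and 8.9% over the series), 5 were higher in DN1 than in LSK (15.4%), and 1 was higher and 1 lower in DN2b than in DN1 (8.42% and 9.79%). Of the 9 tested at equal list lengths, 5 were higher and 0 lower in Delta1 culture than in IgG, beside 26.2% and 24.4% over the series. The window also holds the starts of Rasal1, Oas2 and Cfap73, and 5 of its 16 distal sites were nearest to the start of Dtx1.

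**Figure D3:**
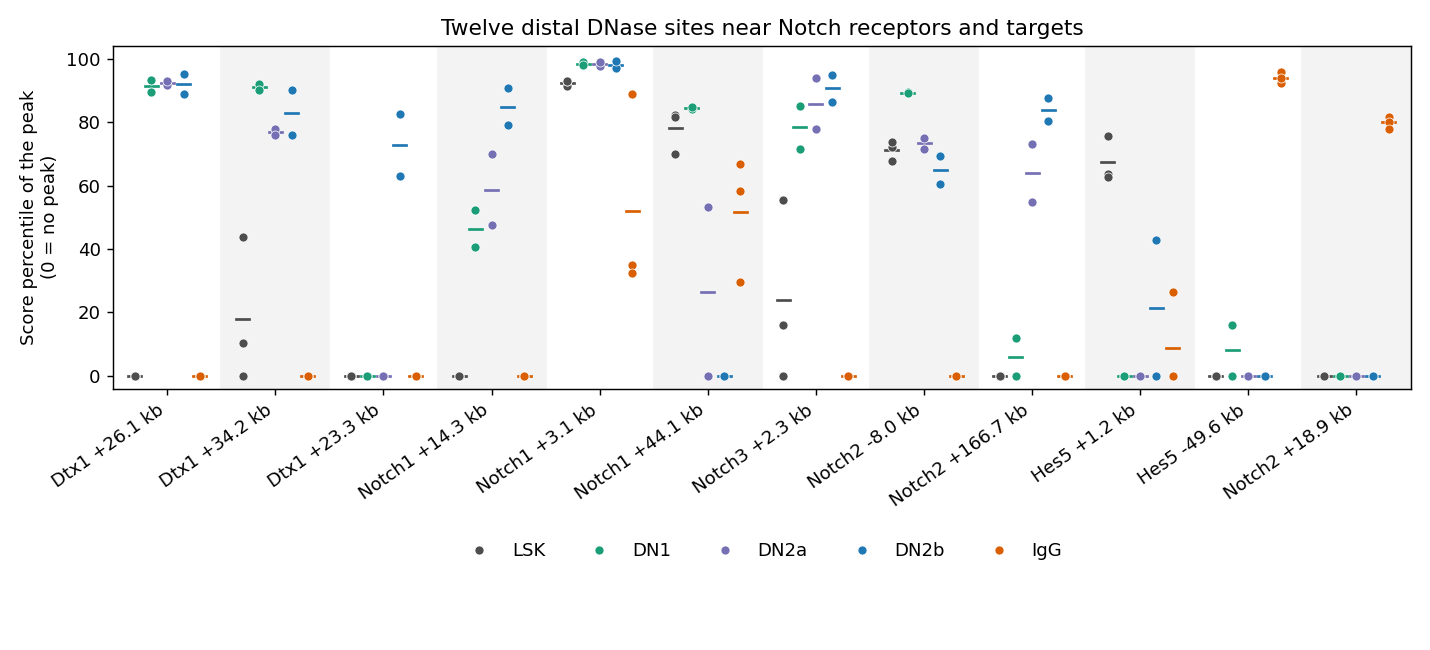
Score percentiles of 12 distal sites in the 12 libraries, with the distance from the gene's start on the x axis. Points are libraries and bars group means. Dtx1 +26.1 kb is open only in Delta1 culture, Notch1 +44.1 kb is lost by DN2b, and Hes5 -49.6 kb and Notch2 +18.9 kb are high in IgG.

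Ptcra (chr17:46755663-46763712, minus strand) encodes the pre-T cell receptor alpha chain, which pairs with the first rearranged beta chain. No library had a peak within 1 kb of its start. A distal site upstream, at -4.4 kb in an intron of Gm26904 and chosen after its values were seen, was open in DN2b alone, at 15.3 and 65.9, 40.6 points above DN1 on average. Stronger sites lay beyond its 3' end among other genes. At +51.0 kb, in an intron of Pex6, the values were 0, 25.6 and 0 in LSK, 55.2 and 27.8 in DN1, 79.3 and 72.1 in DN2a, 81.0 and 87.4 in DN2b and 0 in IgG. They rose by 42.7 ± 11.3 points from DN1 to DN2b (adjusted p = 0.0299), and by 61.0 points at equal list lengths. At +38.2 kb, in an untranslated exon part of Pex6, the DN1 libraries, at 73.4 and 67.2, exceeded LSK, at 0, 31.6 and 39.6. The difference was 46.5 ± 10.6 points (adjusted p = 0.0154, lost without DN1 replicate 1), and as a description 26.4 points at equal list lengths. At a site centred 30011 bp downstream of the start, chosen for its presence pattern, only libraries from Delta1 culture had a peak, between 34.9 and 79.6, and at equal list lengths no comparison was called. Only 1 of 12 distal sites in this window was nearest to Ptcra.

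Summed over the 10 genes, 143 of 220 distal sites had a peak in at least 2 libraries and were tested. Delta1 culture exceeded IgG at 57 and fell below it at 17, beside 37.2% and 8.9% of all distal sites. DN1 was above LSK at 21 and below it at 2, against 15.4% and 2.45%. DN2b was above DN1 at 12 and below it at 9, against 8.42% and 9.79%. IgG was above LSK at 16 and below it at 24, against 5.59% and 15.8%. The 16 sites higher in IgG than in LSK were 9 around Notch2, 4 around Notch1 and 3 around Hes5. At equal list lengths 81 sites were tested, and Delta1 culture exceeded IgG at 22 and fell below it at 22, beside 26.2% and 24.4% of all distal sites.

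**Figure D4:**
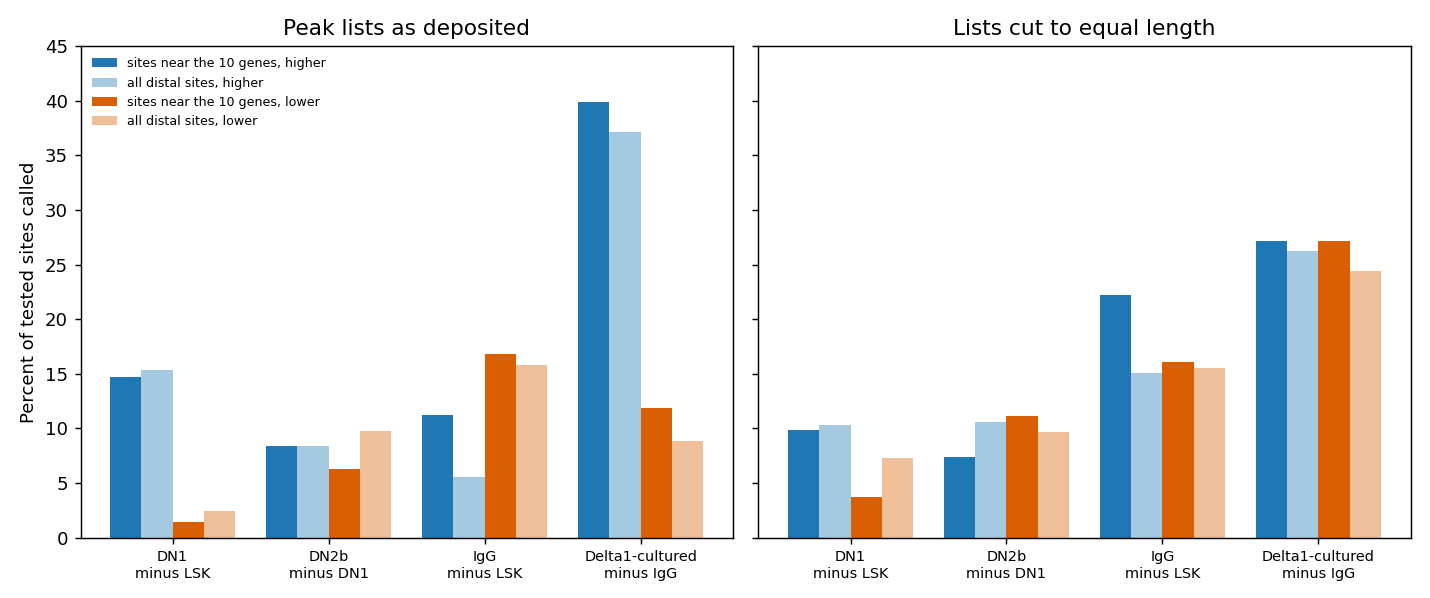
Percent of tested distal sites called higher or lower in each comparison, near the 10 genes (dark bars) and over the whole series (pale bars), for the lists as deposited and for lists of equal length. The dark bar stands well above the pale one for sites higher in IgG than in LSK, and the excess of higher calls in Delta1 culture over IgG disappears at equal list lengths.

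Presence patterns needed no test. Of the 220 sites, 4 had a peak in every Delta1 library and in no LSK or IgG library, 2 around Dtx1 (+26.1 and -14.7 kb), 1 at Notch1 (+14.3 kb) and 1 near Ptcra (at 30011 bp), and 2.1% of all distal sites had this pattern. Another 8 were open in every LSK and Delta1 library and in no IgG library (3.4% over the series), 1 in LSK alone (0.718%), 3 in DN1 alone (2.04%), 6 in DN2b alone (1.93%), 0 in the 4 DN2 libraries alone (0.864%) and 11 in all 12 libraries (3.86%). The sites seen in a single library numbered 77 (34.2% over the series), and 41 of these were in DN2b replicate 2 alone (13.2%), the library with the longest list. By position, 93 of the 220 lay between genes, 93 in introns, 15 in coding exons, 13 in untranslated exon parts and 6 in non-coding exons.

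The windows of 300 bases around the 220 sites held TGGGAA in 65 (29.5%) and GTGGGAA in 31 (14.1%), beside 25.3% and 6.94% of the windows of all distal sites. Over the series GTGGGAA was present in 9.06% of the 2991 sites open in every Delta1 library and in no LSK or IgG library, and in 5.17% of the 3112 sites open in every IgG library and in no other. The shorter TGGGAA had the opposite order, at 25.0% and 27.4%. Around the 10 genes GTGGGAA was present in 2 of 4 and 1 of 12 such sites and TGGGAA in 3 of 4 and 2 of 12. These shares are descriptions, and a match is not a measured binding site.

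The rest of the pathway was read from a list of 37 further promoters. Of these 21 were open in all 12 libraries, 3 (Notch4, Rbpj at its gene record and Hes3) in none, and 30 could be tested. None was called higher or lower in DN1 than in LSK (2.36% and 1.34% of all promoters) or in DN2b than in DN1 (1.52% and 0.84%). With lists of equal length 3 of 29 were lower in DN1 than in LSK and 0 higher, beside 4.91% and 1.9%. In Delta1 culture 16 of the 30 were called higher than IgG and 3 lower, beside 56.3% and 2.86% of all promoters. These were 5 and 5 of 29 at equal list lengths, beside 22.1% and 13%. The 5 that were also higher at equal lengths were Maml3, a coactivator of the Notch complex, Adam17 and Aph1a, which take part in cutting the receptor, Mfng, a fringe glycosyltransferase, and Dtx2, a relative of Dtx1. Their gains on the lists as deposited ran from 16.2 points for Adam17 to 47.6 points for Maml3. Psen2, a catalytic subunit of gamma-secretase, went the other way. As a description, it fell by 95 points in Delta1 culture, with a mean percentile of 95 in IgG, 17.6 in LSK and 0 in each DN group. Dtx4 and Spen, the latter a corepressor that binds RBPJ, were also lower, with differences of -7.92 and -3.63 points, and of -24.3 and -13.3 points at equal list lengths. Dll4, a ligand gene, was 36.6 points higher on the lists as deposited and 2.37 points higher without a call at equal lengths. Jag1, another ligand gene, differed by -17.0 points without a call on the lists as deposited (adjusted p = 0.236) and fell by 55.4 points at equal lengths (adjusted p = 0.000122), where it also fell by 49.8 points from LSK to DN1 (adjusted p = 0.00539). Pofut1, which adds fucose to the receptors, was called higher on the lists as deposited and changed sign, without a call, at equal list lengths.

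The promoters most like each variable member were found by Pearson correlation over the 12 libraries among 12731 promoters, and the points share libraries and list lengths, so the values only describe. Hes1 was closest to Gpr108 (r = 0.997), Ndufa3 (0.996) and Lax1 (0.994). Hey1 was closest to Zdhhc15 (0.989), Map2k6 (0.987) and Mtif2 (0.987), Nrarp to Puf60 (0.988), Trmt61a (0.984) and Pfn1 (0.979), and Dtx1 to Duox2 and Duoxa2 (both 0.974) and Hrh2 (0.956). The Heyl values, at or above 0.9998 for Klhl32, Ngfr and H2afy2, rest on 2 libraries with a peak.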

How the data were processed

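DNase-seq was made from 12 libraries in 5 groups (n = 3 LSK, 2 DN1, 2 DN2a, 2 DN2b, 3 IgG). The authors aligned paired reads to mm10 with BWA (0.7.12) and used hotspot2 (false discovery rate 0.05) on each library by itself to call peaks of 150 bp. The deposited score of each peak, a whole number up to 150, has no stated meaning and was used only as a rank within its library. Depth is not given in the sources used here, so list length stands in its place. Peaks of all libraries were merged at 1 bp of overlap into 170207 sites. Promoter values took the highest percentile within 1 kb of the start of the GENCODE record. Promoters and sites with a peak in at least 2 libraries were tested with limma (3.58.1, R 4.3.3) on percentiles, with intensity trend, over all libraries, in 4 contrasts (DN1 minus LSK, DN2b minus DN1, IgG minus LSK, and the mean of DN1, DN2a and DN2b minus IgG), with Benjamini-Hochberg adjustment over all promoters or all sites. In data simulated for DN1 minus LSK with known shifts, the promoter fit (12732 promoters) recovered 56% of shifts of 30 points and 85% of 60, and the site fit (114527 sites) 13% and 34%. The named sites are, for each gene, the distal site of highest median, that with the largest called difference between Delta1 culture and IgG, and that with the largest called difference in DN1 minus LSK or DN2b minus DN1. Others were chosen after their values were seen, as were the sites of a presence pattern. The genes and lists were chosen with earlier results of these data known. Alternatives were equal list lengths, the upper 50% by score of each list, presence alone, no filter, windows of 500 bp and 2.5 kb, every coding transcript start, merging within 150 bp, each library left out, and, added after seeing the data, distal sites away from every coding transcript start. Groups of 2 and 3 libraries are too small for the check of single outlying samples. Coordinates are 1-based mm10, and 0 peaks extended beyond a GRCm38 chromosome.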

Additional observations from a re-analysis of the deposited data

How the results depend on the processing

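No paired analysis was possible because the replicate numbers only follow the order of deposition. Cutting the lists to equal length left 81 of the 143 distal sites to test, and the shares in brackets are those of all distal sites. Higher calls were then 8 (10.3%) in DN1 over LSK, against 21 (15.4%) on the full lists, 6 (10.6%) in DN2b over DN1, against 12 (8.42%), 22 (26.2%) in Delta1 culture over IgG, against 57 (37.2%), and 18 (15.1%) in IgG over LSK, against 16 (5.59%). Those lower in IgG than in LSK were 13 (15.6%), against 24 (15.8%). Of the member promoters 4 could then be tested, against 7, with 1 higher in DN1 than in LSK (1.9% of all promoters), against 0, 2 higher in Delta1 culture than in IgG (22.1%), against 5, and 1 lower in IgG than in LSK (19.2%), against 3. The share of higher calls among all promoter calls in Delta1 culture minus IgG went from 95.2% to 62.8%, and among distal calls from 80.7% to 51.8%. With the upper 50% of each list 86 distal sites could be tested, with 31 (37.9%) higher in Delta1 culture than in IgG, 8 (6.03%) higher and 14 (15%) lower in IgG than in LSK, and 1 of 5 promoters (3.24%) higher in DN1 than in LSK, a count also of 1 of 8 (2.59%) with every coding transcript start. With presence alone 143 sites gave 11 higher (10.5%) and 1 lower (1.59%) in DN1 than in LSK and 6 higher (4.35%) and 3 lower (4.53%) in DN2b than in DN1, and of the 7 promoters 0 were called in Delta1 culture over IgG (7.6%) or in IgG below LSK (5.66%). Beyond the number of sites tested the cause was not tested. At equal list lengths the Notch2 promoter and the Hey1 site at +2.6 kb changed sign in Delta1 culture minus IgG, to -9.35 and -12.6 points.

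With each library left out in turn, distal sites higher in DN1 than in LSK ranged from 6 of 133 (without DN1 replicate 1, where the share of all sites was 7.98%) to 25 (without either DN2b library, 18.4% and 21.03%), and were 13 of 140 (12.8%) without LSK replicate 1. Sites higher in DN2b than in DN1 ranged from 4 of 126 (without DN2b replicate 2, 4.75%) to 14 of 135 (without DN2b replicate 1, 14.6%), with 7 of 139 (6.22%) without DN1 replicate 2, and sites lower from 3 (without DN1 replicate 1, 5.03%) to 17 (without DN2b replicate 2, 14.7%). Delta1 culture over IgG ranged from 43 sites (without any 1 IgG library, 28.4% to 29.6%) to 75 (without DN2b replicate 1, 52.7%). Promoters higher in DN2b than in DN1 ranged from 0 to 1, the latter without DN1 replicate 2 (0.757% of all promoters) and without DN2b replicate 1 (2.7%). Of the single promoter results, 315 of 328 kept their direction and side of the threshold when a library was left out and 149 of 168 did so under the other settings, and of the named site results 212 of 226 and 60 of 72. The Notch2 promoter difference between Delta1 culture and IgG lost its call without any 1 of 8 libraries. Depth is unknown, and a weak site can be missing from a short list.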
